A study of Mus musculus with 16 samples.

Results

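The genes described here are 36 genes of the NRF2 pathway, of antioxidant defence and of glutathione conjugation, followed in mouse liver. They were chosen by name, as the rows of the deposited table that carry one of 36 listed symbols, and all 36 were found among its 30463 genes, each as 1 row. They fall into 20 antioxidant enzymes, 13 glutathione transferases and 3 further genes, which are the factor gene Nfe2l2, its repressor gene Keap1 and the UDP-glucose dehydrogenase gene Ugdh. The authors' deposited table has an adjusted p-value for all 36, so none was lost to its filter on low counts.

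RNA was sequenced from 16 liver samples of wild-type C57BL/6N mice aged 14 weeks. An injection at 2 weeks of age delivered either vehicle or DEN (diethylnitrosamine), a liver carcinogen that alkylates DNA once hepatocyte enzymes have activated it. Diets diverged at 6 weeks of age, when mice were kept on control diet or moved to a 60% high fat diet. The 4 groups of 4 samples were therefore control diet with vehicle, control diet with DEN, high fat diet with vehicle, and high fat diet with DEN.

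Only 1 comparison could be read. The authors' deposited table holds, for each gene, the mean normalized count over the libraries, the log2 fold change, the standard error (SE) of that change and the adjusted p-value, and it does not say which groups stand on either side. Values above 0 are therefore assigned to a positive side and values below 0 to a negative side, with neither tied to a diet or to DEN. The 16 columns of single libraries carry codes that match no sample label, so no value per sample, no spread within a group and no depth per sample is given. Intervals are 95% normal intervals from the authors' SE, and a gene is "called" at an adjusted p-value below 0.05. By that rule 7 of the 36 genes were called, of which 4 were positive and 3 negative. The authors' deposited table calls 6.57% of its 16288 tested genes, 3.67% in the positive and 2.90% in the negative direction.

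NRF2, the protein of Nfe2l2, is a transcription factor that KEAP1 binds and hands to a CUL3 ubiquitin ligase for destruction. Oxidants and electrophiles modify cysteines of KEAP1, NRF2 then accumulates, pairs with a small MAF protein and binds antioxidant response elements of genes that make glutathione, reduce thioredoxin, remove quinones and conjugate electrophiles. Liver holds much of the body's glutathione, and its glutathione transferases join that tripeptide to drugs, carcinogen metabolites and products of lipid peroxidation.

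The antioxidant response element has the core letters TGACNNNGC, which were searched on both strands of the 250 bases before each RefSeq start site (build GRCm38.p6). RefSeq windows were matched for 29 of the 36 genes, and 8 of these 29 (27.6%) held the core in at least 1 window, beside 3112 of 27025 genes (11.5%) in the whole table of promoters. By window, where a gene can have several start sites, the core stood in 8 of 40 windows of the 36 genes and in 10.2% of all 32851. Gclc, Gsr, Hmox1, Prdx6, Sod3, Gsta4 and Gstt2 were not searched. The 8 genes were Nfe2l2, Ugdh, Gclm, Prdx1, Txnrd1, Sod1, Gsta3 and Mgst1. The matches printed here are those of the factor gene itself, of Ugdh, of the glutathione synthesis gene Gclm, of Prdx1, and of Mgst1, the called gene among the 8. Capitals mark the core, which reads in the gene's own direction for Nfe2l2 and the first Ugdh match and on the opposite strand for the others.

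Nfe2l2, chr2:75704879-75704913, minus strand: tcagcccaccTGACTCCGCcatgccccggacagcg
Ugdh, chr5:65435950-65435990, minus strand: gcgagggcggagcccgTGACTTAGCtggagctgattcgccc
Ugdh, chr5:65435912-65435952, minus strand: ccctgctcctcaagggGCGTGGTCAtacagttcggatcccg
Gclm, chr3:122245407-122245447, plus strand: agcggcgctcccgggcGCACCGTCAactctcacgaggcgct
Prdx1, chr4:116685450-116685490, plus strand: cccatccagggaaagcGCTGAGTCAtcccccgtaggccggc
Mgst1, chr6:138140455-138140495, plus strand: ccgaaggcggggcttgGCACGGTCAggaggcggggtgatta

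The Prdx1 match, TGACTCAGC when read on the opposite strand, also holds the letters TGACTCA of an AP-1 site, and the other printed matches do not. The Mgst1 core lies 56 to 48 bases before a RefSeq start, and the Nfe2l2 core 240 to 232 bases before one. RefSeq and GENCODE starts differ for some genes. The Mgst1 core and the second Ugdh core lie inside the spans that GENCODE gives these genes, which begin at 138140316 for Mgst1 and at 65435949 for Ugdh on the minus strand. Of the 7 called genes, 6 had a window and 1 of those held the core, beside 7 of the 23 windowed genes that were not called. A match is a description of these letters alone.

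Levels spanned a wide range. Per kb of exon, which allows genes to be compared, the microsomal transferase gene Mgst1 stood first of the 36 at a mean normalized count of 32333 per kb, followed by the glutathione peroxidase gene Gpx1 at 23332 per kb, both from the authors' deposited table with GENCODE exon lengths. Gstm1 at 5292 and Gsta3 at 4914 per kb came next among the 36, and Nqo1, the quinone reductase gene, was lowest at 53.1 per kb (authors' deposited table). On this scale Gpx1 and Mgst1 stood at percentiles 99.6 and 99.7 of the tested genes with an annotated length, and Nqo1 at 56.9. The deposited mean normalized counts of the 20 antioxidant enzymes summed to 0.449% of all counts and those of the 13 transferases to 0.503%.

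**Figure D1:**
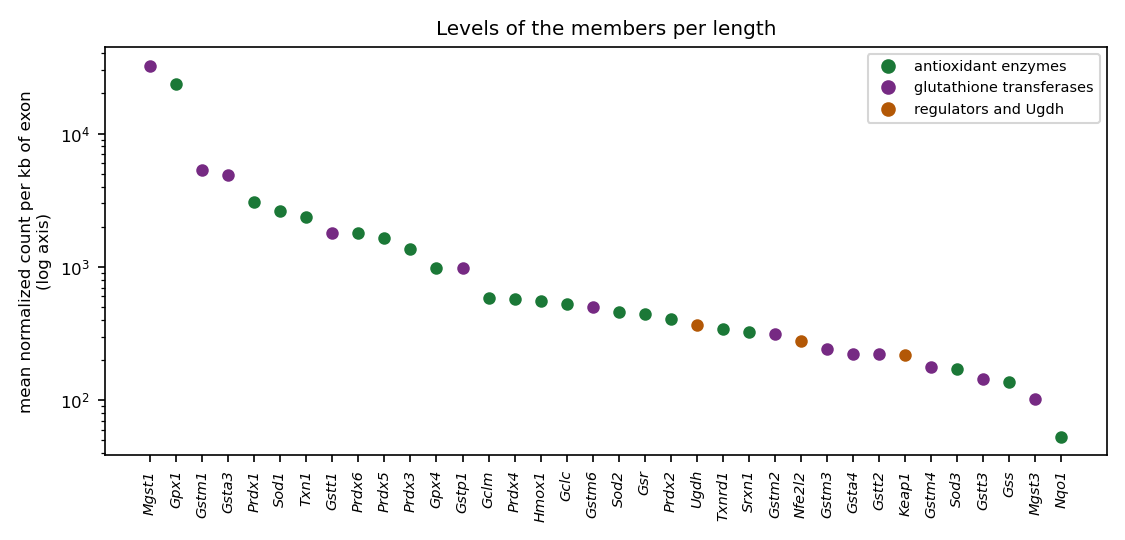
Level of each of the 36 genes, as the authors' mean normalized count per kb of exon on a log axis, with 1 point per gene coloured by list. Mgst1 (32333 per kb) and Gpx1 (23332 per kb) stand apart from the others, and Nqo1 (53.1 per kb) is lowest.

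Transferase genes were called in both directions, whereas 2 of 20 antioxidant enzyme genes were called. Among the 13 glutathione transferases, 2 were called positive (Gsta4 and Mgst1) and 3 negative (Gstm2, Gstm3 and Gstm6), together 38.5% of the list. Of the 20 antioxidant enzymes, 2 were called, Gpx1 and Txn1, both positive, and 0 negative. An unadjusted p under 0.05 was found for 19.04% of all tested genes. It was found for 4 of 20 antioxidant genes, all positive, which is close to that background share, and for 8 of 13 transferase genes (61.5%, 5 positive and 3 negative). The median size of the log2 fold change, sign aside, was 0.44 for transferases, 0.14 for antioxidant enzymes and 0.18 for all tested genes (authors' deposited table). These calls depend on the authors' spread: with each statistic divided by 1.44, the scaled median absolute deviation over the tested genes, Gstm2 was the sole gene of the 36 still called.

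**Figure D2:**
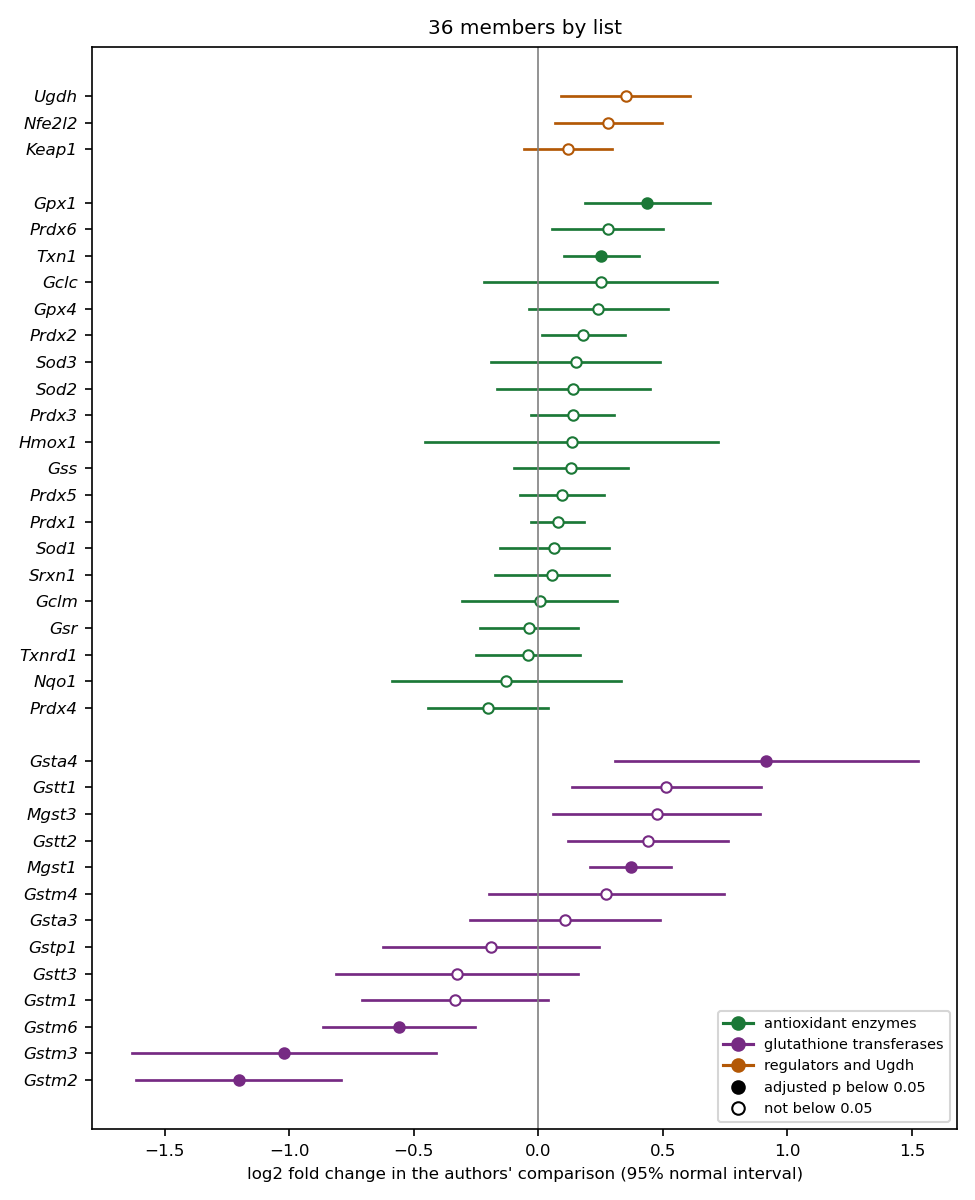
Log2 fold change of each of the 36 genes in the authors' comparison (x axis), with 95% normal intervals from the authors' SE as bars, grouped and coloured by list. Filled points are the 7 genes with an adjusted p below 0.05. Antioxidant enzymes lie between -0.20 and 0.44, and transferases between -1.20 and 0.91.

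The regulators of the pathway were not called. Nfe2l2 had a mean normalized count of 1056 and stood at a log2 fold change of 0.28 ± 0.11 (SE; 95% interval 0.066 to 0.50, adjusted p = 0.104) by the authors' deposited table. Keap1, at a mean of 1023, was at 0.12 ± 0.091 (interval -0.059 to 0.30, adjusted p = 0.515) by the authors' deposited table. Both intervals lie within a 1.5-fold change either way, which is 0.58 on the log2 scale. The table gives transcript levels, whereas NRF2 is controlled largely through the stability of its protein, which was not measured. Of the 50-base stretches of Keap1 transcripts, 7.78% recur in Gm16754, an antisense gene with a mean normalized count of 11.96 in the authors' deposited table.

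No gene of glutathione synthesis and reduction was called. The ligase that joins glutamate to cysteine, the limiting step, has a catalytic subunit from Gclc and a modifier subunit from Gclm. In the authors' deposited table Gclc was at 0.25 ± 0.24 and Gclm at 0.0052 ± 0.16 (log2, SE). The synthase gene Gss was at 0.13 ± 0.12 and the reductase gene Gsr, which restores oxidized glutathione, at -0.037 ± 0.10 (log2, SE, authors' deposited table). Of the 4, 0 were called and 0 had an unadjusted p under 0.05. The interval of Gclc, from -0.22 to 0.72, reaches beyond a 1.5-fold change, and the intervals of the other 3 do not.

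Thioredoxin itself was called. Txn1, the cytosolic thioredoxin gene (ENSMUSG00000028367, chromosome 4 from 57943373 to 57956411 in GRCm38), had a mean normalized count of 2499 in the authors' deposited table. Txn1 was at a log2 fold change of 0.25 ± 0.077 by the authors' deposited table (interval 0.10 to 0.40, 1.19-fold, adjusted p = 0.0223), an interval within a 1.5-fold change. Its partner gene Txnrd1, the reductase that recharges thioredoxin, was at -0.041 ± 0.11 (adjusted p = 0.891), and Srxn1, which repairs overoxidized peroxiredoxins, at 0.056 ± 0.12 (adjusted p = 0.856) by the authors' deposited table. The difference between Txn1 and Txnrd1 was not tested.

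Nqo1 and Hmox1, often read as sentinels of NRF2 activity, were not called and were imprecise. Nqo1 had a mean normalized count of 82.5 and stood at -0.13 ± 0.23 (interval -0.59 to 0.33, adjusted p = 0.834) by the authors' deposited table. Hmox1, which breaks down heme and is also expressed by macrophages, had a mean of 977 and was at 0.13 ± 0.30 (interval -0.45 to 0.72, adjusted p = 0.869) by the authors' deposited table. Neither interval lies within a 1.5-fold change. In bulk tissue, fewer cells of a type cannot be told apart from less RNA per cell. Kupffer cell markers, of the resident macrophages, were negative in sign for 10 of 10 genes, from -0.76 to -0.33 (log2) in the authors' deposited table, with 1 called (Timd4) and 7 at an unadjusted p under 0.05. Their part in the Hmox1 value was not tested.

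Peroxiredoxins, which reduce hydrogen peroxide through a reactive cysteine, were 5 positive and 1 negative in sign, with 0 of 6 called and 2 at an unadjusted p under 0.05. Prdx6, the form that uses glutathione, was at 0.28 ± 0.11 (adjusted p = 0.123), and cytosolic Prdx2 at 0.18 ± 0.085 (adjusted p = 0.212) by the authors' deposited table (log2, SE). Mitochondrial Prdx3 was at 0.14 ± 0.086, Prdx5 at 0.094 ± 0.086 and Prdx1, the most abundant of the 6 per kb, at 0.077 ± 0.054 (log2, SE, authors' deposited table). Prdx4, of the endoplasmic reticulum, was the negative one at -0.20 ± 0.12 (adjusted p = 0.377) by the authors' deposited table. All 6 intervals lie within a 1.5-fold change. Erythroid markers, of cells rich in Prdx2, had 0 of 7 called and 0 at an unadjusted p under 0.05, with log2 fold changes from -0.99 to 0.46 in the authors' deposited table, and their part in the Prdx2 value was not tested. Prdx5 shares 15.5% of its 50-base stretches with Trmt112, a gene that overlaps it on the opposite strand. The libraries were stranded, but the sources used here do not say if strand was used in counting.

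Superoxide dismutase genes were positive in sign and none was called. The cytosolic form Sod1 was at 0.064 ± 0.11, the mitochondrial form Sod2 at 0.14 ± 0.16 and the extracellular form Sod3 at 0.15 ± 0.17 in the authors' deposited table (log2, SE), with 0 of 3 at an unadjusted p under 0.05. All 3 intervals lie within 1.5-fold.

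Of the glutathione peroxidases, which spend glutathione to reduce peroxides, Gpx1 was called. Gpx1 (ENSMUSG00000063856, chromosome 9 from 108338903 to 108340343 in GRCm38) had a mean normalized count of 33622 and a log2 fold change of 0.44 ± 0.13 in the authors' deposited table (interval 0.19 to 0.69, 1.36-fold, adjusted p = 0.0172). Gpx4, which protects membranes from lipid peroxides, was at 0.24 ± 0.14 (adjusted p = 0.358) by the authors' deposited table. For Gpx4, 34.7% of the 50-base stretches recur in Gpx4-ps2, which had a mean normalized count of 3.53 in the authors' deposited table. Recurring stretches also made up 21.04% of Sod2, 12.04% of Prdx2, 10.33% of Gss and 8.81% of Prdx1. The gene sharing most with Gss, Acss2 (4.15%), overlaps it on the opposite strand. Of the 18 antioxidant genes that were not called, 15 have intervals within 1.5-fold, and the exceptions are Gclc, Nqo1 and Hmox1.

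**Figure D3:**
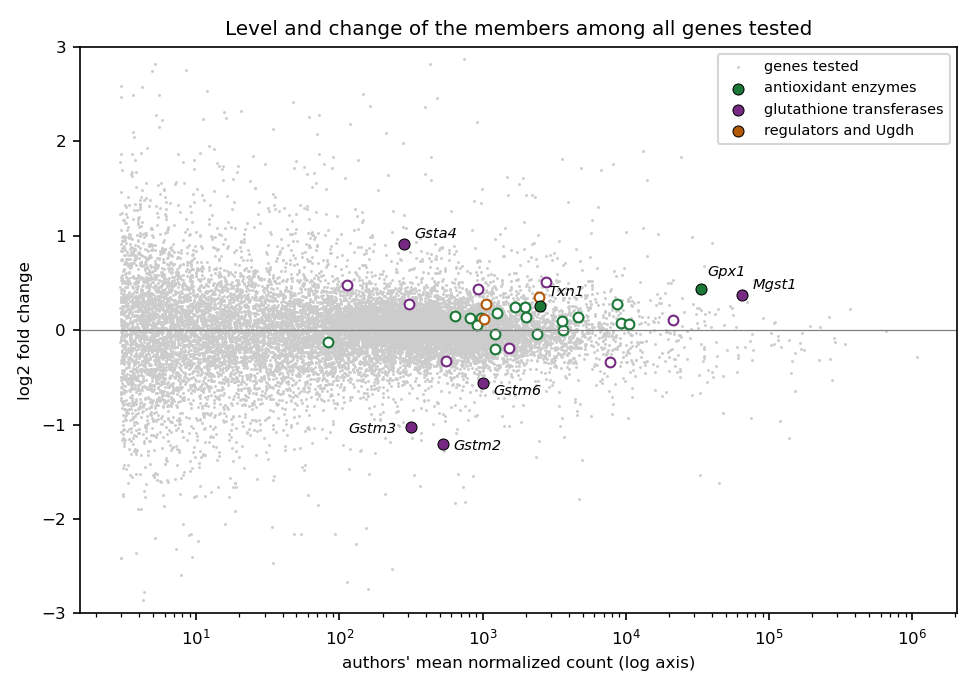
Log2 fold change against the authors' mean normalized count (log axis) for all tested genes in grey and for the 36 genes in colour, filled where the adjusted p was below 0.05. Gpx1 and Mgst1 are called at high levels with changes of 0.44 and 0.37, whereas Gstm2, Gstm3 and Gsta4 lie further from 0 at lower levels; 18 tested genes beyond -3 or 3 are not drawn.

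Mu class transferases, which conjugate a broad range of electrophiles, were negative in sign for 4 of 5 genes, and 3 of the 5 were called negative. Gstm2 (ENSMUSG00000040562, chromosome 3 from 107981702 to 107986453 in GRCm38, mean normalized count 524) was at -1.20 ± 0.21 in the authors' deposited table, which is 2.30-fold higher on the negative side (adjusted p = 2.27e-06), and ranked 79 by p among the 16288 tested genes. Gstm3 (chromosome 3 from 107963696 to 107969283, mean 316) was at -1.02 ± 0.31 (2.03-fold, adjusted p = 0.0236) by the authors' deposited table. Gstm6 (chromosome 3 from 107938847 to 107943749, mean 999) was at -0.56 ± 0.16 (1.47-fold, adjusted p = 0.0112) by the authors' deposited table.

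The remaining mu class genes were not called. Gstm1, the most abundant of the class at a mean normalized count of 7796, was at -0.33 ± 0.19 (interval -0.71 to 0.041, adjusted p = 0.339) by the authors' deposited table. Gstm4 was the positive one at 0.27 ± 0.24 (adjusted p = 0.596) by the authors' deposited table. Counts of this class are uncertain where copies share sequence. Of the 50-base stretches of each gene's transcripts, 28.8% in Gstm3, 18.9% in Gstm1, 5.97% in Gstm6 and 5.65% in Gstm2 recur in transcripts of other genes, and 0 in Gstm4. The gene sharing most with Gstm3 is Gm8834, with 16.01% of the stretches. Gm8834 had a mean of 173.3 and was itself called at -0.94 ± 0.28 (log2, SE, adjusted p = 0.0176) by the authors' deposited table. Gstm2-ps1, which shares 14.1% of the Gstm1 stretches, had a mean of 394.7 and was at -0.54 ± 0.23 (adjusted p = 0.155) by the authors' deposited table. Both of these copies were singled out after their values were seen. Of the 7 transferases with under 5% of stretches shared, 2 were called, Gsta4 and Mgst1, and the 3 called mu class genes are not among those 7. This limit was chosen after seeing the data, and Gstm2 and Gstm6 lie just above it.

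All 5 mu class genes lie in 1 cluster of 7 genes spanning 149.1 kb. In genome order the cluster holds Gstm5, Gstm7, Gstm6, Gstm3, Gstm2, Gstm1 and Gstm4. The 3 called genes are direct neighbours in that order among the genes named Gstm, and the log2 fold change was negative for the 5 genes from Gstm7 to Gstm1 and positive for those at both ends. Gstm7 was at -0.26 ± 0.10 (adjusted p = 0.0989) and Gstm5 at 0.087 ± 0.17 (adjusted p = 0.844) by the authors' deposited table. None of the RefSeq windows of Gstm1, Gstm2, Gstm3, Gstm4 and Gstm6 held the core letters of the antioxidant response element.

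**Figure D4:**
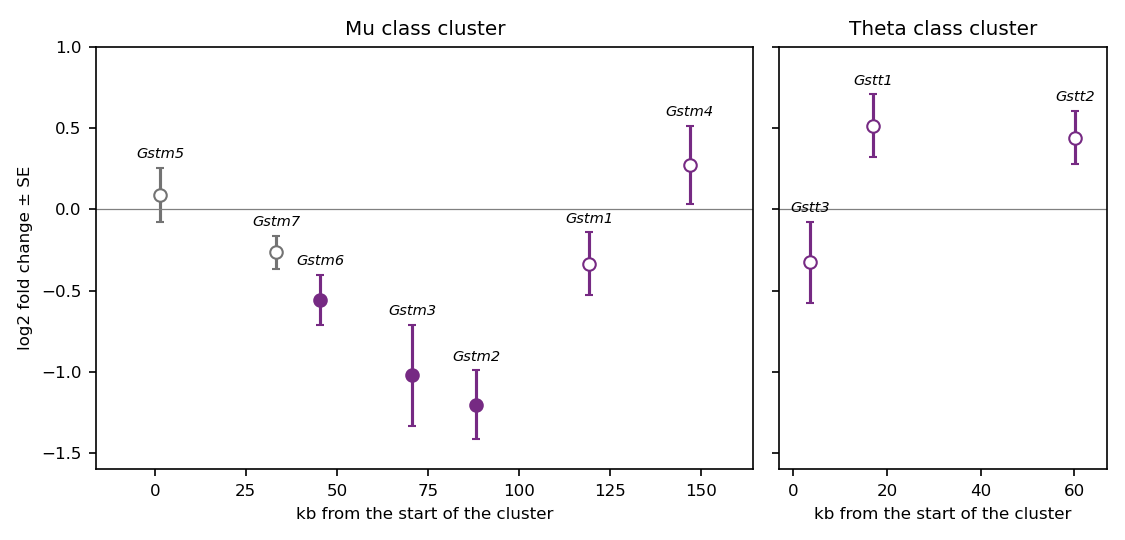
Log2 fold change ± SE (y axis) of the transferase genes with an adjusted p in the mu class and theta class clusters, by the distance of the gene's middle from the start of the cluster in kb (x axis). Purple marks genes of the 13 transferases, grey other genes of the cluster, and filled points an adjusted p below 0.05. Gstm6, Gstm3 and Gstm2 lie side by side at -0.56, -1.02 and -1.20.

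Alpha class genes were positive in sign. Gsta4, whose enzyme conjugates the lipid peroxidation product hydroxynonenal, was called at the edge of the threshold. Gsta4 (ENSMUSG00000032348, chromosome 9 from 78182774 to 78209349 in GRCm38) had a mean normalized count of 281 and a log2 fold change of 0.91 ± 0.31 in the authors' deposited table (interval 0.31 to 1.52, 1.89-fold, adjusted p = 0.0494). Adjusting over every gene with a p-value, in place of the genes that the authors kept, gave an adjusted p = 0.0912 for Gsta4 from the p-values of the authors' deposited table, and its adjusted p ranged from 0.0392 to 0.622 over the alternatives tried. Gsta3, the abundant alpha class gene at a mean of 21348, was at 0.11 ± 0.19 (adjusted p = 0.832) by the authors' deposited table.

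Membrane-bound transferases belong to a separate protein family from the soluble classes. Mgst1 (ENSMUSG00000008540, chromosome 6 from 138140316 to 138156755 in GRCm38), whose enzyme sits in the endoplasmic reticulum and outer mitochondrial membrane and also reduces lipid peroxides, had a mean normalized count of 65087. Its log2 fold change was 0.37 ± 0.083 in the authors' deposited table (interval 0.21 to 0.53, 1.29-fold, adjusted p = 0.000553). The interval excludes a change of 1.5-fold, so the call rests on a small and precise difference. Mgst3, far lower at a mean of 112, was at 0.47 ± 0.21 (adjusted p = 0.181) by the authors' deposited table. Neither Mgst1, Mgst3 nor Gsta4 shares a 50-base stretch with another gene.

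Theta class genes, which act on small electrophiles such as halogenated compounds, did not pass the threshold. Gstt1 was at 0.51 ± 0.19 (interval 0.13 to 0.89, adjusted p = 0.0891) and Gstt2 at 0.44 ± 0.16 (interval 0.12 to 0.76, adjusted p = 0.0843) by the authors' deposited table. Gstt3, beside Gstt1 on chromosome 10, was at -0.33 ± 0.25 (adjusted p = 0.516) by the authors' deposited table. The pi class gene Gstp1 was at -0.19 ± 0.22 (adjusted p = 0.707) by the authors' deposited table, and 33.7% of its 50-base stretches recur in Gstp2, which had a mean of 20.6. Of the 8 transferases that were not called, 1 (Gsta3) has an interval within 1.5-fold, so changes of that size are not bounded for the other 7.

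Ugdh, which oxidizes UDP-glucose to the UDP-glucuronate used in glucuronidation, was at 0.35 ± 0.13 (interval 0.092 to 0.61, adjusted p = 0.0883) by the authors' deposited table. With Nfe2l2 and Keap1 it makes 3 genes that were positive in sign, of which 0 were called and 2, Nfe2l2 and Ugdh, had an unadjusted p under 0.05.

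Beyond the 36 genes, 91 further genes of the same chemistry were taken by function, with earlier results of these data known. The counts for these genes are therefore a description, and 87 of them had an adjusted p. By the adjusted p of the authors' deposited table, 8 of them were called positive and 5 negative, together 14.9%. Over all tested genes the share called was 6.57%, with 3.67% positive and 2.90% negative. Of 9 partners and repressors of NRF2, 1 was called (11.1%): Cul3, the scaffold of the ligase that degrades NRF2, at -0.23 ± 0.067 (log2, SE, adjusted p = 0.0162) by the authors' deposited table. Of the other 8, 2 had an unadjusted p under 0.05.

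Among 25 other targets attributed to NRF2, 4 were called positive and 2 negative, together 24.0%. Taldo1, a transaldolase of the pentose phosphate pathway, was at 0.47 ± 0.087 (adjusted p = 1.21e-05), the export pump gene Abcc3 at 0.80 ± 0.19 (adjusted p = 0.00143) and the carboxylesterase genes Ces1g and Ces2c at 1.02 ± 0.25 and 1.21 ± 0.30 in the authors' deposited table (log2, SE). The carbonyl reductase gene Cbr1 was at -0.72 ± 0.24 (adjusted p = 0.0389) and the pump gene Abcc4 at -0.64 ± 0.21 (adjusted p = 0.0370) by the authors' deposited table.

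Of 13 other glutathione transferases, 10 had an adjusted p and 1 was called. Gstk1, of mitochondria and peroxisomes, was at 0.49 ± 0.15 (log2, SE, adjusted p = 0.0207) by the authors' deposited table. Of 21 other antioxidant and redoxin genes, 20 were tested, with 3 called positive (15.0%) and 0 negative, while 4 were negative at an unadjusted p under 0.05. The methionine sulfoxide reductase gene Msra was at 0.37 ± 0.079 (adjusted p = 0.000212) and mitochondrial Glrx5, of iron-sulfur cluster assembly, at 0.41 ± 0.14 (adjusted p = 0.0378) by the authors' deposited table. The third was Txnrd2, the mitochondrial thioredoxin reductase gene, named after its value was seen, at 0.36 ± 0.12 (adjusted p = 0.0465) by the authors' deposited table.

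In glutathione supply and turnover, 1 of 12 genes (8.33%) was called, and 10 of 12 were negative in sign, with a median log2 fold change of -0.20. Over all tested genes, 8269 of 16288 were negative in sign. Of the 12 genes, 2 had an unadjusted p under 0.05 (16.7%), beside 19.04% of all tested genes. The called gene was Cth, which makes cysteine from cystathionine, at -0.76 ± 0.24 (log2, SE, adjusted p = 0.0273) by the authors' deposited table. In the UDP-glucuronate pathway 1 of 11 genes (9.09%) was called, the lysosomal glucuronidase gene Gusb at -0.37 ± 0.12 (adjusted p = 0.0380) by the authors' deposited table. Each outside list with 1 called gene thus stood at 8.33% to 11.1%, near the 6.57% of all tested genes.

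Markers of the cell types of liver gave a check of the tissue. Hepatocyte markers were abundant, with 9 of 10 found and mean normalized counts of 12999 to 1079857 in the authors' deposited table. Of these 9, 8 were negative in sign and 3 were called negative there, Tat, Cps1 and Ahsg at -1.53, -0.93 and -0.64 (log2). Sinusoidal endothelial markers were negative in 7 of 7, with 0 called and 2 at an unadjusted p under 0.05. Stellate cell markers were positive in 5 of 8 and cholangiocyte markers in 5 of 5 (median log2 fold change 0.43), with 0 called and 0 at an unadjusted p under 0.05 in either list. Of the cholangiocyte markers, Krt7, Krt19 and Epcam had low mean normalized counts of 10.3, 13.2 and 19.2, and Sox9 and Spp1 had 214 and 604 (authors' deposited table). Neutrophil markers were negative in 5 of 5 (median -1.14, median SE 0.88), with 0 called and 1 at an unadjusted p under 0.05. That 1 was Ly6g, at a mean normalized count of 4.32 in the authors' deposited table. The 3 adipocyte markers found, Adipoq, Retn and Plin1, had mean normalized counts of 0.387, 0.558 and 0.439 in the authors' deposited table. The part of these cell types in the values above was not tested.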

How the data were processed

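RNA of 16 mouse liver samples was sequenced from stranded mRNA libraries, per the labels' protocols. The submitters' processing notes list FastQC, Trimmomatic, HISAT2, HTSeq 0.11.1 and GRCm38, with no role or order. The authors deposited 1 table. Per the file headers it holds a mean normalized count (a signal), log2 fold change and SE (log2 scale), test statistic (a score), p-value and adjusted p-value. The sources used here do not give its tool, its model or its 2 sides. The 16 library columns match no label and were not used, so no test between groups was run. Checked on the values, adjusted p-values follow Benjamini-Hochberg across 16288 genes, and the other 14175 have mean counts of at most 2.95.

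The genes and lists were chosen with earlier results of these data known. A log2 fold change and SE were given for each of the 36 genes. Full values were planned for called genes, Nfe2l2, Keap1, and genes with an SE of at least 0.25 or a log2 fold change of at least 0.5 in size. They were also given for some others, such as Nqo1, Gstm1, Gstt2 and Ugdh. Outside the 36, values were given for at most the 12 called genes with the smallest p, plus exceptions named in the text. Positions and exon lengths came from GENCODE release M21 (GRCm38), matched by identifier for 30372 genes, and shared 50-base stretches from its transcripts, on both strands. Promoters came from RefSeq (GRCm38.p6). Python 3.11.15, pandas 2.3.3, numpy 2.4.6 and scipy 1.17.1 were used, and the adjustment was tested on simulated data. Alternatives were other thresholds, other adjustments, a count minimum of 100, a scaled statistic, centring on the median gene and, chosen after seeing the data, leaving out genes with shared sequence. The labels number the samples without tying each to an animal, so p-values measure the spread between samples, which may be technical.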

Additional observations from a re-analysis of the deposited data

How the results depend on the processing

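No paired analysis was possible because the library columns carry codes that match no sample, and leaving out single replicates could not be run for the same reason. The calls among the 36 genes were 2 antioxidant enzymes, 5 transferases and 0 of the other 3. At a threshold of 0.01, and likewise with the Benjamini-Yekutieli adjustment, they were 0 antioxidant enzymes and 2 transferases (Gstm2 and Mgst1), and 5 genes outside the 36 in place of 13, while 3.01% and 2.39% of all tested genes were called. With the statistic divided by its median absolute deviation they were 0 antioxidant enzymes, 1 transferase (Gstm2) and 1 outside gene (Taldo1), while 0.872% of all tested genes were called. At a threshold of 0.10, 1 of the other 3 was called (Ugdh), and Gstt1 and Gstt2 joined the transferases, while 9.75% of all tested genes were called. Adjusting over every gene with a p-value lost Gsta4 and gave 7 outside genes, with 2.52% of all genes called. Leaving out genes that share 5% or more of their 50-base stretches kept each adjusted p as it was. Of the genes left, 2 of 7 transferases and 2 of 14 antioxidant enzymes were called. A count minimum of 100 and centring on the median gene, which lies at -0.0044, kept all 7 calls, with 9.09% and 6.54% of the genes tested called. The table gives no depth per sample, so precision rests on the authors' SE alone.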
